A study of Mus musculus with 2 samples.

Results

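Basophils and mast cells were taken from 1 single-cell RNA-seq library of sorted cells from the peripheral lung of wild-type mice at postnatal day 3, described as control lungs. A cell was counted as a member when mitochondrial genes made up at most 10% of its total and at least 3 of 6 genes (Mcpt8, Cpa3, Fcer1a, Cyp11a1, Ms4a2 and Gata2) had a value above 0. Cd3e, Cd79a, Pecam1 and Col1a2 each had to be 0. These conditions held for 84 of 10660 kept cells, a share of 0.788% (exact 95% interval 0.629 to 0.975), out of 11306 cells in the table. The members were set beside the 7066 other kept cells with a value above 0 for Ptprc, the pan-leukocyte surface phosphatase CD45. The study's other sample was bulk RNA-seq, with 1 library, of cells positive for PDGFRA from mice of the same age and the genotype Pdgfra-H2BGFP, a nuclear green fluorescent reporter of Pdgfra. Each group is 1 library, so differences between cell groups are described without tests, and intervals on shares cover counting error only. The labels do not say how many animals gave cells or which gate was used in the single-cell sort.

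Basophils and mast cells are granulocytes of related origin that bind IgE through the high-affinity receptor FcεRI and release histamine, proteases, lipid mediators and cytokines when that receptor is crosslinked. Basophils mature in bone marrow and circulate, while mast cells complete their maturation in tissues under stem cell factor, the ligand of Kit. In mouse lung, connective tissue mast cells lie around large airways and vessels, and basophils of the developing lung have been described as a source of cytokines that act on alveolar macrophages. GATA2 is a zinc finger transcription factor required for both lineages.

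Because a GATA factor is among the genes that define these cells, the stretch of 250 bases upstream of the start site was read for the genes that mark them, and 6 are shown. The sequences are from RefSeq on GRCm38.p6, 5′ to 3′ on the gene's strand, and capitals mark the GATA motif as AGATAA, with the first base changed as TGATAA, with the last base changed as AGATAG, or with both changed as TGATAG, on either strand. A match on the other strand is printed as its reverse complement.
Ms4a2, chr19:11623720-11623969, minus strand: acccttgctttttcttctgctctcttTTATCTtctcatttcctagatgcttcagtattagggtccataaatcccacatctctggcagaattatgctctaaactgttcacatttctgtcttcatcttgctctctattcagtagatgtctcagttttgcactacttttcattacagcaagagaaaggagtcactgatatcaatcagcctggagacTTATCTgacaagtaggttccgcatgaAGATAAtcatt
Cd200r3, chr16:44943428-44943677, plus strand: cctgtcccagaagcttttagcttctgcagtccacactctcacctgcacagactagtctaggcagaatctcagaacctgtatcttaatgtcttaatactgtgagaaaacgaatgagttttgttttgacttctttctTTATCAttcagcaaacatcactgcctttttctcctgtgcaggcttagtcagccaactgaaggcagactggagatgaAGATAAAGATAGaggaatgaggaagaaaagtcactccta
Prss34, chr17:25298144-25298393, plus strand: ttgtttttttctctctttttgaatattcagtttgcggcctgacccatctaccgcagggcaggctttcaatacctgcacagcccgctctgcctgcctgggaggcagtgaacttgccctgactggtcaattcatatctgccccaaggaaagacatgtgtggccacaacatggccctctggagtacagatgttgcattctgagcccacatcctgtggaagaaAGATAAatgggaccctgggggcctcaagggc
Cpa3, chr3:20242182-20242431, minus strand: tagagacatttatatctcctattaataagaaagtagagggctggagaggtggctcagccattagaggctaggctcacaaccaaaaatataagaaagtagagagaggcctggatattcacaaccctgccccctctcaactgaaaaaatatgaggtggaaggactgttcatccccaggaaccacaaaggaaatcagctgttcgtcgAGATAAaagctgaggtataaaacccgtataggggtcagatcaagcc
Mcpt4, chr14:56062311-56062560, minus strand: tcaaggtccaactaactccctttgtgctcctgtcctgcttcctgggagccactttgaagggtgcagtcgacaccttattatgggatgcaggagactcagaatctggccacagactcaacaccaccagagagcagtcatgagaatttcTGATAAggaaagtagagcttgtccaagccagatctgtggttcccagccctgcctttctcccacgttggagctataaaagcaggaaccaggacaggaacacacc
Mcpt8, chr14:56085198-56085447, minus strand: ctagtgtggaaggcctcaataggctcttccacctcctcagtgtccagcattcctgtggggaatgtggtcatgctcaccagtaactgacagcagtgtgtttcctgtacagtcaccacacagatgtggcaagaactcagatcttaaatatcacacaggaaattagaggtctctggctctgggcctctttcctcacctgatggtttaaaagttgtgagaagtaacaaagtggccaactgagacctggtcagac
Ms4a2, the β chain of FcεRI, and Cd200r3, a basophil surface receptor, held 3 matches each, and in Cd200r3 a pair of matches lie end to end. Prss34, Cpa3 and Mcpt4, which encode granule proteases, held 1 match each, and Mcpt8 held none. Of the other genes read, Fcer1a and Cma1 held 1 match, Gata2 none at either of its starts, and Cyp11a1 1 at only 1 of its starts. At least 1 match was found in 26.5% of 32851 promoter stretches of the same length, and at least 2 in 6.4%. A match is a run of letters and was not tested as a binding site.

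The 84 members fell into a larger basophil-like and a smaller mast-like group. A cell was called basophil-like with at least 2 of Mcpt8, Prss34, Cd200r3, Il4 and Itga2 and more of these than of the mast side, and mast-like with at least 2 of Cma1, Mcpt4, Tpsb2, Tpsab1, Kit and Mrgprb2 and more of these than of the basophil side. This gave 52 basophil-like cells (61.9%, exact 95% interval 50.7 to 72.3) and 11 mast-like cells (13.1%, 6.72 to 22.2). The remaining 21 cells (25%, 16.2 to 35.6) met neither rule and stayed unsplit. Ptprc was above 0 in 66 of the 84 (78.6%, 68.3 to 86.8), which is 0.925% (0.716 to 1.18) of all 7132 kept cells with Ptprc.

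The genes that chose the cells are given as a description. Levels are CPM, the summed depth-corrected values of a cell group scaled to 1000000. The other Ptprc-positive cells include 50 cells with at least 3 rule genes that failed an absence condition. Mcpt8, a basophil granule protease, was at 2964 CPM in the members and 21.9 CPM in other Ptprc-positive cells. It was above 0 in 48 of 52 basophil-like cells, with a median of 12.5 and a highest value of 132 per cell, and in 0 of 11 mast-like cells. The other 4 basophil-like cells were placed by Cd200r3 together with Il4. Cyp11a1, the mitochondrial enzyme that makes pregnenolone from cholesterol, was above 0 in 83 of the 84 cells. Gata2 was above 0 in 77, Ms4a2 in 66, Cpa3, the mast cell carboxypeptidase, in 55, and Fcer1a, the IgE-binding chain, in 28. For comparison, Mcpt8 was above 0 in 0.407% of T cell-like and 0.382% of B cell-like cells, at medians of 1757 and 1628 detected genes per cell against 1304 in basophil-like cells.

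**Figure D1:**
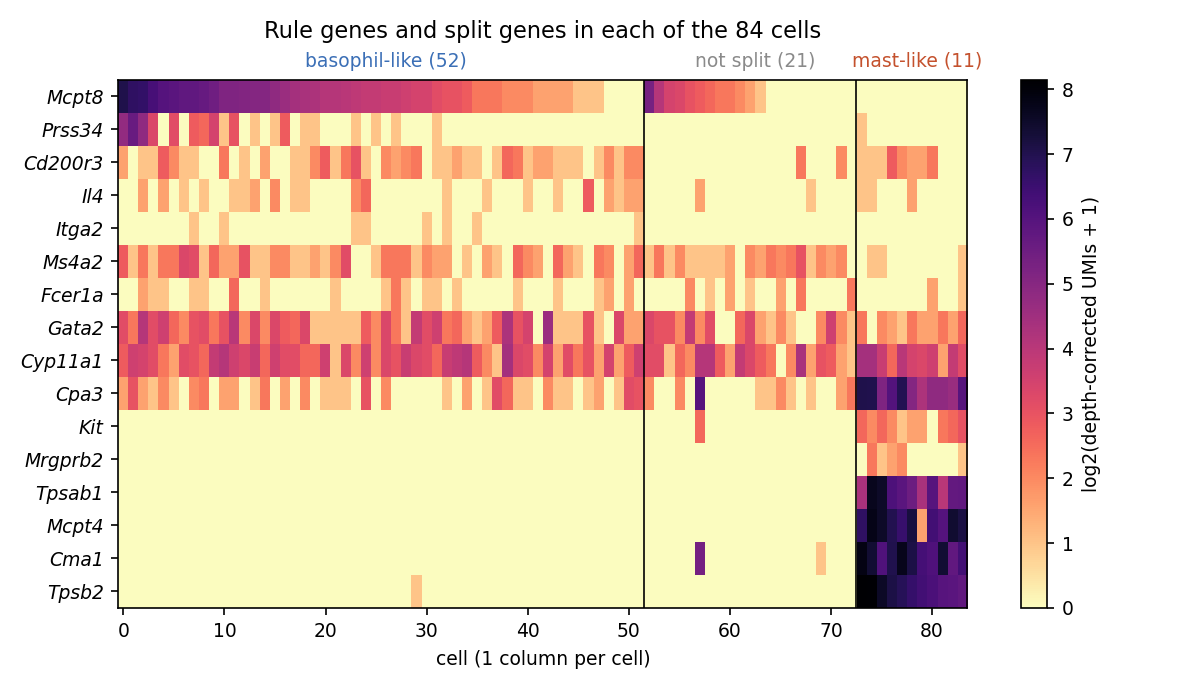
Values of the 6 rule genes and the split genes in each of the 84 cells, with 1 column per cell, as log2 of the depth-corrected UMI value plus 1. Cells are ordered by group and, within basophil-like and unsplit cells, by Mcpt8, and within mast-like cells by Tpsb2. The mast proteases fill the 11 columns at the right, and Mcpt8 fills 48 of the 52 columns at the left.

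The mast-like cells met the rule narrowly. Their median was 3 of the 6 rule genes, against 5 in basophil-like cells, and 8 of the 11 had exactly 3. The rule gene Mcpt8 is also a basophil side gene and was at 0 in all 11, so part of this gap is tied to the split. Ms4a2 was above 0 in 3 of 11 and Fcer1a in 2 of 11, while Cpa3 and Cyp11a1 were above 0 in all 11. Requiring 4 rule genes left 3 mast-like cells. At the threshold itself, 19 members had exactly 3 rule genes (5 basophil-like, 8 mast-like and 6 unsplit), and only 4 cells with 2 rule genes met the absence conditions. Of those 4, all had Gata2, 2 had Cpa3, 2 had Cyp11a1 and none had Mcpt8, Fcer1a or Ms4a2. Across all kept cells, 27 had at least 3 of the mast side genes. Of these, 11 were members, 7 reached 3 rule genes but failed an absence condition, and 9 had fewer than 3 rule genes.

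The absence conditions removed nearly as many cells as they kept. At least 3 rule genes were found in 163 kept cells, and 79 of these (48.5%, exact 95% interval 40.6 to 56.4) had a value above 0 for Cd3e (26 cells), Cd79a (5), Pecam1 (32) or Col1a2 (36). Only 1 of these genes was above 0 in 61 of the 79. Ptprc was above 0 in 50 of the 79, and those 50 stay among the other Ptprc-positive cells and can be in their classes. The share with Cd3e among the 163 was 16%, against 22.4% of all kept Ptprc-positive cells. For Pecam1 the shares were 19.6% and 19.1%, for Col1a2 22.1% and 23.3%, and for Cd79a 3.07% and 5.79%. Some leading genes were at like levels in the 79 cells and in the members, and others were not. Mcpt8 was at 2827 against 2964 CPM, Prss34 at 364 against 365 CPM in the members, Il6 at 532 against 599 CPM, and Ifitm1 at 12327 against 13062 CPM. Mcpt4 was at 1597 against 3000 CPM, Tpsb2 at 2079 against 3205 CPM and Cpa3 at 1333 against 1900 CPM, while Fcer1a was at 164 against 110 CPM. Without the absence conditions there were 100 basophil-like and 18 mast-like cells.

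Summed markers of most other classes were lower in the members than in other Ptprc-positive cells, while those of epithelial cells, ILC2 and early granulocyte progenitors were higher. Cd3e, Cd79a, Pecam1 and Col1a2 are markers of T cells, B cells, endothelial cells and fibroblasts and were 0 by the rule. The lower sums of those classes are therefore partly set by the rule. At least 4 of 6 markers of another class were above 0 in 11 members, 7 of them for neutrophils and 1 each for T cells, NK cells, endothelial and epithelial cells, and 7 of the 11 were basophil-like. The ILC2 markers, which include Il1rl1, summed to 581 CPM in the members and 242 CPM in the others, and those of early granulocyte progenitors, which include Ctsg, to 302 and 43.4 CPM, with 1320 CPM in mast-like cells. The 6 neutrophil markers summed to 6466 CPM in the members, 9376 CPM in basophil-like cells, 773 CPM in mast-like cells and 28026 CPM in other Ptprc-positive cells. S100a8, a calprotectin subunit, had a median of 2 and a highest value of 643 among the members. Leaving the 11 cells out lowered S100a8 in basophil-like cells from 4450 to 2239 CPM and Camp, a neutrophil granule peptide, from 726 to 20.7 CPM. Epithelial markers summed to 4211 CPM in the members and 1868 CPM in the others, and without the 11 cells the surfactant gene Sftpc went from 3858 to 808 CPM. The B cell genes Ms4a1 and Pax5 and the fibroblast genes Dcn and Pdgfra were at 0 in all 84 cells. The eosinophil markers Epx and Prg2 were missing from the data. The 4 that could be read summed to 67.5 CPM in the members and 236 CPM in the others, and no member had 3 of them. The part of cells sharing a droplet in the values below was not tested beyond leaving these 11 cells out.

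Over 6336 genes at 20 CPM or more in the members or in other Ptprc-positive cells, 375 (5.92%) had a log2 ratio of 1 or more and 1940 (30.6%) a log2 ratio of -1 or less. The ratio adds 1 CPM to both sides, and these 2 limits are what higher and lower mean for the gene lists. The median of all tested genes was -0.56, so list medians are also given from that level. Members had fewer detected genes (median 1230, range 865 to 3020) than other Ptprc-positive cells (median 1823). Among other Ptprc-positive cells within the members' quartiles of detected genes, the median of all genes was -0.24 and 1066 genes were lower. The cells were chosen by this contrast, so nothing is read from a list's count against these shares.

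**Figure D2:**
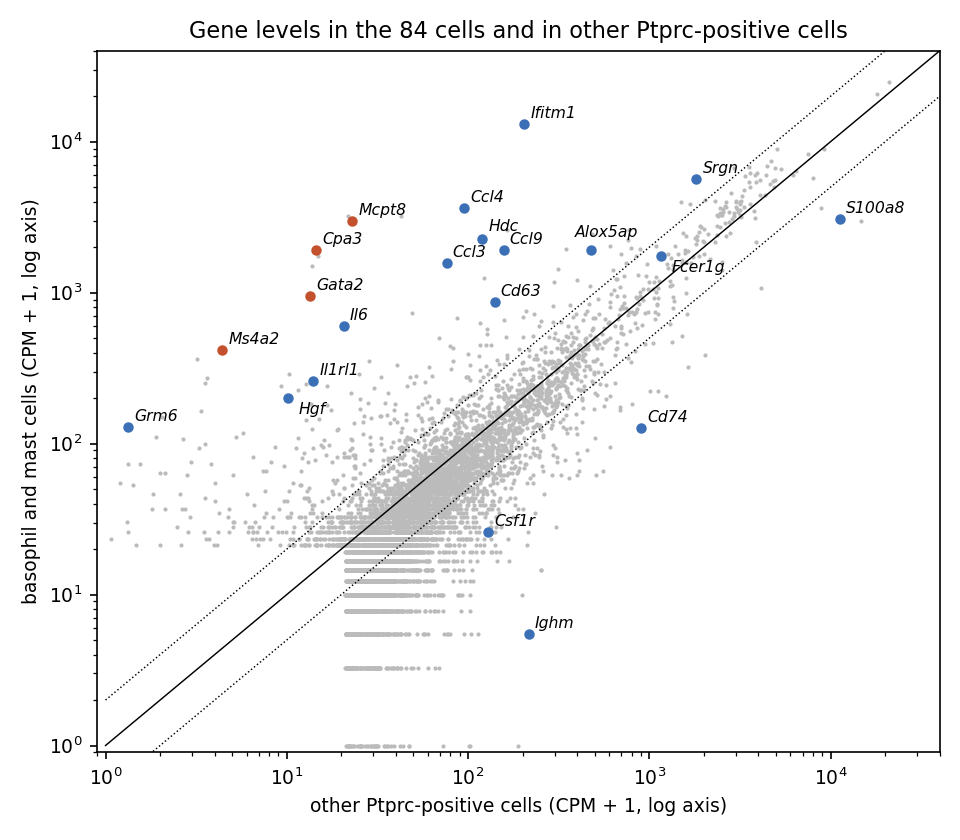
Level of each tested gene in the 84 members (vertical) against the 7066 other Ptprc-positive cells (horizontal), in CPM plus 1 on log axes. Red points are rule genes, blue points other named genes, the solid line marks equal levels and the dotted lines a ratio of 2. Of the labelled genes, Ifitm1 stands highest at 13062 against 203 CPM, and Ighm lies lowest at 4.5 against 215 CPM.

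Of 11 tested genes for granule proteases and proteoglycan, all 11 were higher in the members. Mcpt8 and Cpa3 chose the members, and Mcpt8, Prss34, Cma1, Mcpt4, Tpsb2 and Tpsab1 made the split, so the differences in these genes follow from those choices and are a description. Srgn, the core protein that carries heparin and chondroitin chains in granules, was above 0 in all 84 cells at 5209 CPM in basophil-like and 5336 CPM in mast-like cells, against 1819 CPM in other Ptprc-positive cells. In mast-like cells the chymases and tryptases dominated. Tpsb2, a tryptase, was at 26830 CPM with values of 53 to 282 per cell (median 96), Cma1, a chymase, at 25982 CPM with values of 53 to 226 (median 128), and Mcpt4, a chymase, at 25133 CPM with values of 2 to 221 (median 126). Tpsab1, a tryptase, reached 14744 CPM. In the 52 basophil-like cells Cma1, Mcpt4 and Tpsab1 were at 0 and Tpsb2 was above 0 in 1 cell, with a value of 1. These 4 genes made the split, which fixes that the groups lie apart in them. Part of the 3′ end of Cma1 (12.4% of its 50-base windows) and Mcpt4 (12.9%) is identical in related genes, so their reads could be split between copies.

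Cpa3 was present on both sides at very different levels. It was at 12633 CPM in mast-like cells, with values of 18 to 132 (median 35), and at 330 CPM in basophil-like cells, with a median of 1 and a highest value of 8. Cpa3 is a rule gene that all 11 mast-like cells carry, so this difference is a description. Prss34, a basophil tryptase, was at 570 CPM in basophil-like cells, present in 19 of 52 with a highest value of 48, and above 0 in 1 mast-like cell. Ctsg, cathepsin G, was at 1150 CPM in mast-like cells but in only 4 of 11, and at 117 CPM in 17 of 52 basophil-like cells. Gzmb, granzyme B, was above 0 in 12 basophil-like and 0 mast-like cells. Tpsg1, a transmembrane tryptase, was above 0 in 5 of 11 mast-like cells. A single unsplit cell carried both sides, with values of 6 for Mcpt8, 62 for Cpa3, 40 for Cma1 and 5 for Kit.

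**Figure D3:**
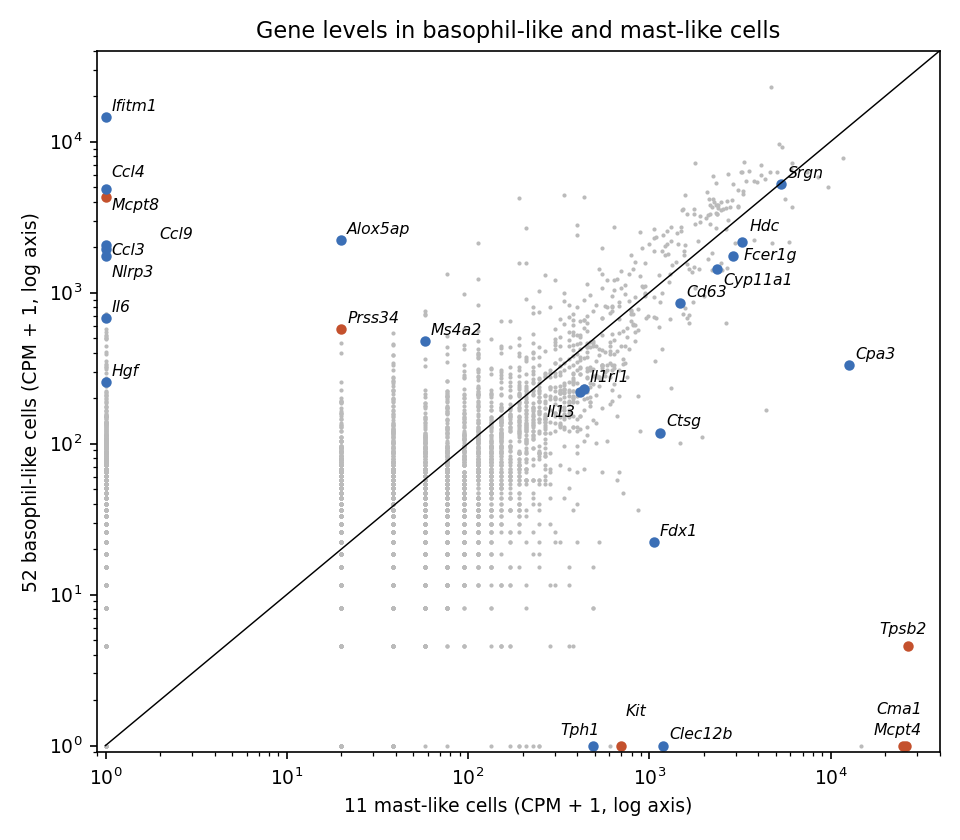
Level of each tested gene in 52 basophil-like cells (vertical) against 11 mast-like cells (horizontal), in CPM plus 1 on log axes. Red points are genes that made the split, blue points other named genes, and the line marks equal levels. Ifitm1, Ccl4, Ccl9, Ccl3, Nlrp3 and Il6 lie at 0 in mast-like cells, and Clec12b and Tph1 lie at 0 in basophil-like cells.

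Among FcεRI genes, Ms4a2 was found mainly in basophil-like cells. Ms4a2 was above 0 in 44 of 52 basophil-like cells (478 CPM) and in 3 of 11 mast-like cells (56.6 CPM), where no value exceeded 1. Fcer1a was at 103 CPM in basophil-like and 56.6 CPM in mast-like cells. Fcer1g, the γ chain shared with other Fc receptors, was at 1750 and 2885 CPM, against 1157 CPM in other Ptprc-positive cells. Of 15 tested genes of IgE receptor signalling, 5 were higher in the members, among them Fcer1a, Ms4a2, Btk and Lat2, and 2 lower (Syk and Vav1). The median log2 ratio was 0.65, 1.21 above that of all genes. Fcer1a and Ms4a2 are rule genes, so their higher levels follow from the rule and enter this count and median. Lat2, a linker of the receptor complex, was at 290 CPM in the members and 24.0 CPM in the others (log2 ratio 3.54), and 206 and 679 CPM in basophil-like and mast-like cells. Syk, the kinase recruited by the receptor, was at 42.8 CPM against 149 CPM.

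Inhibitory receptors and phosphatases did not stand above the other leukocytes as a list. Of 11 tested, Lilrb4a was higher and Cd300lf, Pilra, Siglece and Cd33 were lower, with a median of -0.61, which is -0.05 from that of all genes. Lilrb4a was at 173 CPM against 52.1 CPM, but all of its 3′ end is shared with a neighbouring copy, so its reads cannot be assigned. Pilra, an inhibitory receptor of myeloid cells, was at 27.0 CPM in the members and 313 CPM in neutrophil-like cells.

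Hdc was high in both groups, and Tph1 was found in mast-like cells. All 4 tested genes of amine synthesis and storage were higher in the members. Hdc, which makes histamine from histidine, was above 0 in 83 of 84 cells, at 2179 CPM in basophil-like cells (median 10, highest 36), 3224 CPM in mast-like cells (median 14, highest 33) and 397 CPM in neutrophil-like cells. Slc18a2, the vesicular monoamine transporter, was at 152 and 226 CPM, against 2.36 CPM in other Ptprc-positive cells. Tph1, which starts serotonin synthesis, was above 0 in 9 of 11 mast-like cells (490 CPM) and in 0 of 52 basophil-like cells. This is 46.1-fold above a floor of 3 values over the group at 0. The same floor is used in the other folds below. For depth-corrected values it is a convention and not a statistical bound. Ddc, the enzyme of the next step, was at 0 in all 84 members, but it was low in every class, at most 11.3 CPM (fibroblast-like cells). ILC2-like cells had 147 CPM of Tph1. Maob, a monoamine oxidase, was above 0 in 6 mast-like cells and 1 basophil-like cell.

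Of 9 tested genes of lipid mediator synthesis, Alox5, Alox5ap and Alox15 were higher and Ltc4s, Ptgs1, Tbxas1 and Hpgd were lower, with a median of 0.38, 0.94 above that of all genes. Alox5ap, which presents arachidonic acid to 5-lipoxygenase, was above 0 in all 52 basophil-like cells at 2232 CPM and in 1 of 11 mast-like cells. Neutrophil-like cells had 1007 CPM. Alox15, a 15-lipoxygenase, was above 0 in 25 basophil-like cells at 131 CPM and 31.8 CPM in macrophage or monocyte-like cells. Hpgds, a prostaglandin D synthase, was above 0 in 2 of 11 mast-like cells (56.6 CPM) and 0 basophil-like cells. Lta4h was at 39.0 CPM in basophil-like and 56.6 CPM in mast-like cells, and Tbxas1 at 21.3 and 37.7 CPM. Hpgd, which breaks down prostaglandins, was at 0 in all 84 cells and at 29.1 CPM in the others.

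In steroid synthesis, Cyp11a1 and its electron donor Fdx1 were higher among 5 tested genes and none was lower. Cyp11a1 is a rule gene, so its higher level follows from the rule. Cyp11a1 was at 1439 CPM in basophil-like cells, with a median of 8 and a highest value of 20, and at 2357 CPM in mast-like cells, with values of 2 to 20 (median 11), so the groups overlapped. Fdx1 was at 1056 CPM in mast-like cells (9 of 11, highest value 19) and 21.3 CPM in basophil-like cells (5 of 52). Star, which carries cholesterol into mitochondria, and Hsd3b7 were at 0 in the members. Both were low in every class, at most 4.78 CPM for Star (fibroblast-like cells) and 3.35 CPM for Hsd3b7 (ILC2-like cells).

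Of 14 tested cytokines and growth factors, 7 were higher (Il4, Il13, Il6, Csf1, Csf2, Osm and Hgf) and 2 lower (Il1a and Igf1), with a median of 1.04, 1.60 above that of all genes. Il6 was at 677 CPM in basophil-like cells, above 0 in 45 of 52 (median 3, highest 12), and at 0 in mast-like cells, 12-fold above the floor. The next immune class was macrophage or monocyte-like cells, at 84.1 CPM. Hgf, hepatocyte growth factor, was above 0 in 36 basophil-like cells at 255 CPM and in 0 mast-like cells, with 17.0 CPM in macrophage or monocyte-like cells. For a gene at 0 in the 11 mast-like cells, a limit of 3 cells allows a share of up to 27.3% of cells with a value above 0, which does not limit the share of cells expressing the gene.

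The type 2 cytokines were found on both sides of the split. Il13 was above 0 in 18 of 52 basophil-like (220 CPM, highest value 10) and 7 of 11 mast-like cells (415 CPM, highest value 6). ILC2-like cells, the group 2 innate lymphoid cells, had 589 CPM of Il13 and it was above 0 in 58.8% of them. Il4, which is one of the genes behind the split, was at 142 CPM in basophil-like, 75.4 CPM in mast-like and 20.1 CPM in ILC2-like cells. Other ILC2 cytokines did not follow this order. Il5 was above 0 in 1 member against 405 CPM in ILC2-like cells. Csf2 was at 24.8 CPM in basophil-like cells (1 cell) against 1239 CPM in ILC2-like cells, and Areg at 81.5 CPM (5 cells) against 3191 CPM. Areg is a marker by which ILC2-like cells were classed, so its level there is partly set by that choice. Among basophil-like cells, all 3 of Il4, Il13 and Il6 were above 0 in 11, 2 of them in 12, 1 in 27 and none in 2.

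Csf1, the macrophage growth factor, was at 287 CPM in basophil-like and 170 CPM in mast-like cells, against 155 CPM in neutrophil-like cells. Osm, oncostatin M, was at 386 CPM in basophil-like cells and 151 CPM in macrophage or monocyte-like cells. Il1b was not among the higher genes (log2 ratio 0.22), with 2115 CPM in basophil-like cells below 4782 CPM in neutrophil-like cells. Its values ran up to 79 in single basophil-like cells with a median of 6. Igf1 was at 0 in all 84 cells.

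Of 11 tested chemokines, Ccl3, Ccl4, Ccl6 and Ccl9 were higher and Ccl5, Cxcl1, Cxcl10 and Pf4 lower in the members, with a median of -0.23, 0.33 above that of all genes. Ccl4 was at 4847 CPM in basophil-like cells, above 0 in 47 of 52 (median 14, highest 142), and Ccl3 at 1942 CPM, above 0 in 50 of 52 (median 6, highest 57). Both were at 0 in the 11 mast-like cells, so Ccl4 stood 85.7-fold and Ccl3 34.3-fold above the floor. Both genes were above 0 together in 46 of 52 basophil-like cells. Macrophage or monocyte-like cells followed with 348 CPM of Ccl4 and 168 CPM of Ccl3. Ccl9 was above 0 in all 52 basophil-like cells at 2052 CPM (median 9, highest 38) and in no mast-like cell. Ccl6 was at 4256 CPM in basophil-like, 189 CPM in mast-like and 1840 CPM in neutrophil-like cells. Cxcl2, a neutrophil attractant, was at 1318 CPM in basophil-like cells, below 3016 CPM in neutrophil-like cells. Ccl2 was above 0 in 3 mast-like cells and Ccl7 in 2.

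**Figure D4:**
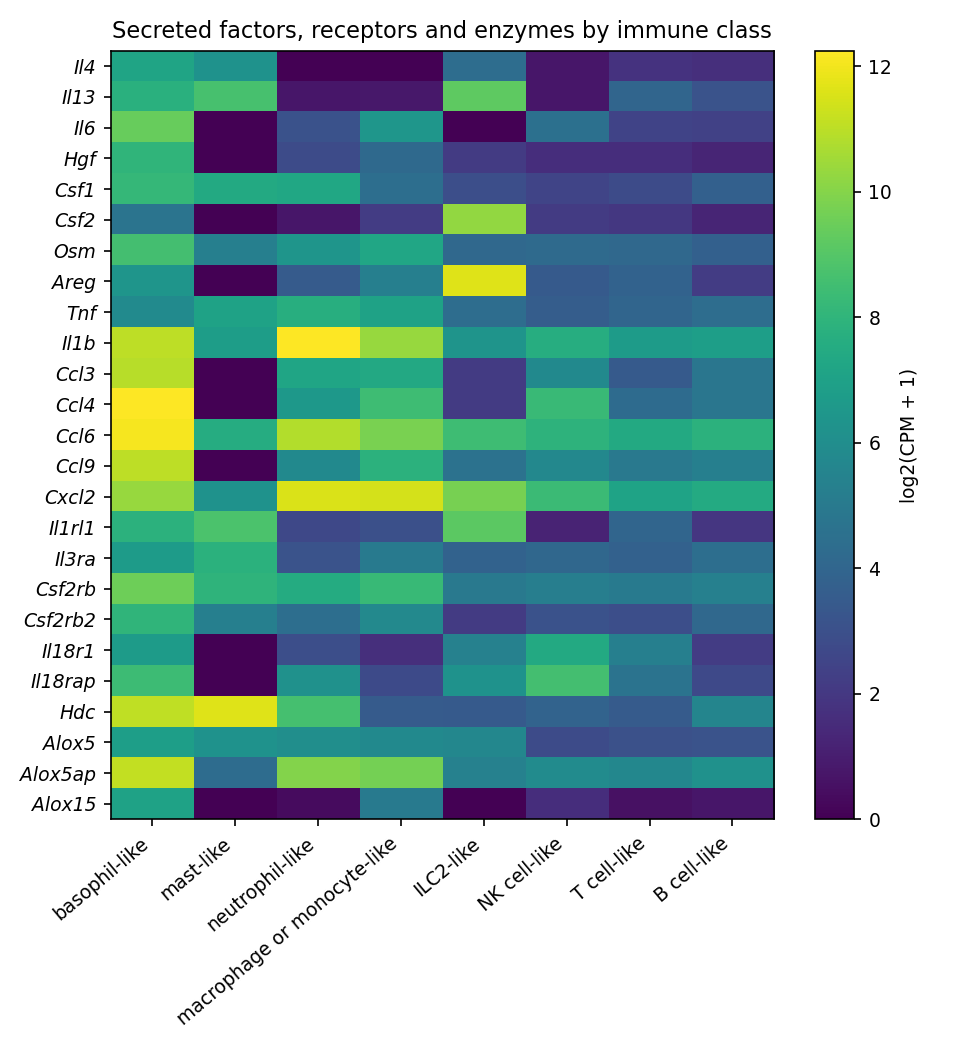
Levels of 25 secreted factors, receptors and enzymes in basophil-like and mast-like cells and in 6 classes of other Ptprc-positive cells, as log2 of CPM plus 1. Basophil-like cells hold the highest level of Il6, Hgf, Ccl3, Ccl4, Ccl6 and Ccl9 among the classes drawn, and ILC2-like cells that of Il13, Csf2, Areg and Il1rl1. Areg and Il1rl1 are markers by which the ILC2-like cells were classed, so their levels there are partly set by that choice.

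Of 19 tested cytokine receptors, 7 were higher (Il3ra, Csf2rb, Csf2rb2, Il1rl1, Il18r1, Il18rap and Kit) and 6 lower (Il4ra, Il13ra1, Il6ra, Csf1r, Csf3r and Ifngr1), with a median of 0.16, 0.72 above that of all genes. Il1rl1, the IL-33 receptor, was above 0 in 27 of 52 basophil-like (230 CPM) and 8 of 11 mast-like cells (434 CPM). These levels lay between 13.0 CPM in other Ptprc-positive cells and 579 CPM in ILC2-like cells, which were classed in part by Il1rl1. Il3ra, the α chain of the IL-3 receptor, was at 106 and 226 CPM. Csf2rb, the β chain shared by the IL-3, IL-5 and GM-CSF receptors, was above 0 in 46 of 52 basophil-like cells at 744 CPM and at 245 CPM in mast-like cells. Csf2rb2, the mouse IL-3-specific β chain, was at 259 and 37.7 CPM. Il18rap, a subunit of the IL-18 receptor, was above 0 in 41 of 52 basophil-like cells (337 CPM) and no mast-like cell, near the 383 CPM of NK cell-like cells. Kit, a gene of the split, was above 0 in 10 of 11 mast-like and 0 of 52 basophil-like cells. Il5ra was at 0 in the members and low in every class, at most 5.59 CPM (B cell-like cells). Crlf2, a subunit of the TSLP receptor, was at 170 CPM in basophil-like cells (26 of 52) with a log2 ratio of 0.66 for the members.

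Among receptors for chemoattractants, lipids and amines, 3 of 14 tested were higher (Ptger3, C3ar1 and Adora2b) and 3 lower (Ptger4, Fpr1 and S1pr1), with a median of -0.16, 0.40 above that of all genes. Adora2b, an adenosine receptor, was above 0 in 35 of 52 basophil-like cells at 312 CPM, against 44.5 CPM in macrophage or monocyte-like cells. C3ar1, the receptor of complement fragment C3a, was at 135 CPM in basophil-like cells and 182 CPM in macrophage or monocyte-like cells. The genes of this list summed to 1311 CPM in basophil-like and 56.6 CPM in mast-like cells. Mrgprb2, also a gene of the split and the receptor through which mouse connective tissue mast cells respond to basic peptides, was above 0 in 5 of 11 mast-like cells, and its neighbour in the family, Mrgprb1, in 6 of 11 at 603 CPM. Both were at 0 in basophil-like cells.

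Ifitm1, an interferon-inducible membrane protein, had the largest level of any gene named here on the basophil side. It was above 0 in all 52 basophil-like cells, with a median of 75.5 and a highest value of 151, and in all 21 unsplit cells, and it was 0 in all 11 mast-like cells. The level was 14457 CPM in basophil-like cells and 294 CPM in neutrophil-like cells, the next class. Of the 3′ end of Ifitm1, 11.8% of 50-base windows also occur in Ifitm3 or a further copy. Of 18 tested adhesion and surface genes, 9 were higher and 2 lower, with a median of 0.63, 1.19 above that of all genes. Cd63, a granule membrane tetraspanin used to follow degranulation, was above 0 in 47 of 52 basophil-like (854 CPM) and all 11 mast-like cells (1471 CPM), against 139 CPM in other Ptprc-positive cells. Cd9, a tetraspanin, was at 1577 and 189 CPM, and Cd69, an early activation antigen, at 213 and 37.7 CPM. Cd200r3 was at 330 CPM in basophil-like and 377 CPM in mast-like cells, so this gene of the basophil side did not separate the groups. Itga2 was above 0 in 8 of 52 basophil-like cells at 28.3 CPM, below 98.8 CPM in NK cell-like cells.

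The unsplit cells carried basophil side genes that the split had not used. Ifitm1, Ccl9 and Alox5ap, chosen after their values were seen, were all above 0 in 52 of 52 basophil-like, 20 of 21 unsplit and 0 of 11 mast-like cells. Unsplit cells held 2310 CPM of Ccl4, 688 CPM of Il6 and 972 CPM of Mcpt8, while Mcpt4, Tpsb2 and Tpsab1 were at 0. Mast side genes were above 0 in 2 unsplit cells. In 1 of them Cma1 had a value of 40 and Kit of 5, and in the other Cma1 had a value of 1. Cpa3 was at 743 CPM in unsplit cells, with a highest value of 62, against 330 CPM in basophil-like cells. In these cells 5 had none of the split genes and 14 had a single basophil side gene and no mast side gene. Their median was 1165 detected genes.

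**Figure D5:**
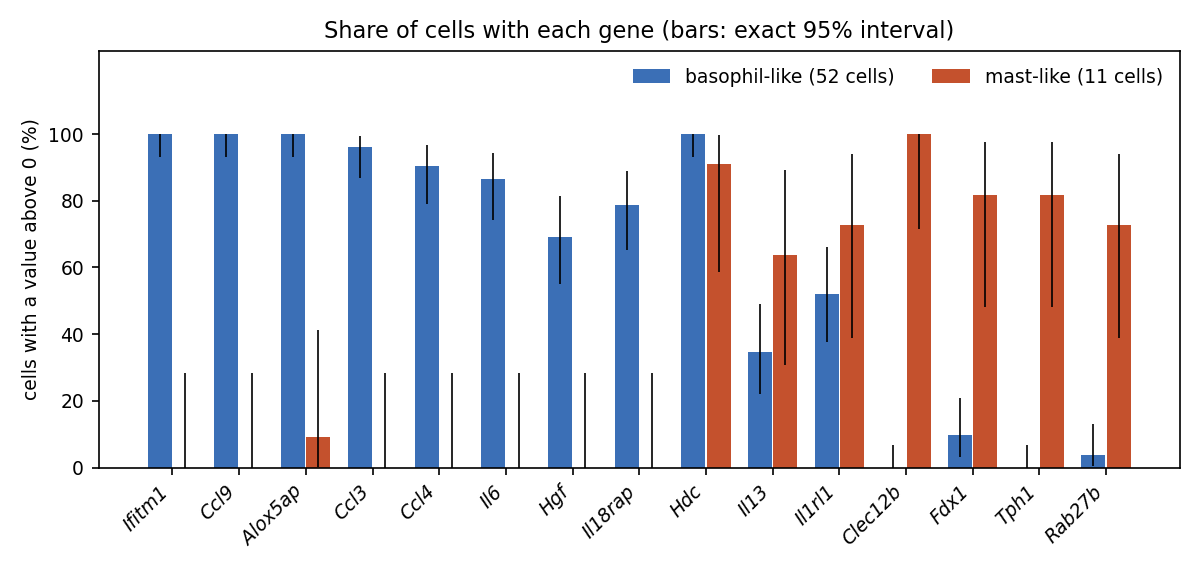
Share of 52 basophil-like and 11 mast-like cells with a value above 0 for 15 genes that the split did not use, in percent, with exact 95% intervals for counting error. Ifitm1, Ccl9 and Alox5ap were found in all 52 basophil-like cells, Clec12b in all 11 mast-like cells, and Hdc, Il13 and Il1rl1 in both.

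Of 17 tested transcription factors, Gata2 and Cebpa were higher in the members and Gata3, Tfec, Stat5b, Irf8 and Bhlhe40 lower. The median was -0.41, 0.15 above that of all genes. Gata2 is a rule gene, so its higher level follows from the rule. Gata2 was at 1070 CPM in basophil-like (median 5, highest 23) and 547 CPM in mast-like cells (median 2, highest 5), against 12.4 CPM in other Ptprc-positive cells. Cebpa, a granulocyte factor, was at 63.8 CPM in basophil-like cells and 0 in mast-like cells. Mitf, the mast cell factor, was found in 2 of 11 mast-like and 4 of 52 basophil-like cells. Gata1 was above 0 in 4 members. Gata3, the ILC2 and T cell factor, was above 0 in 1 member, against 616 CPM in ILC2-like cells, which were classed in part by Gata3.

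In the exocytosis list, 4 of 15 tested genes were higher (Rab27b, Rab37, Rab44 and Unc13d) and Stxbp3 was lower, with a median of 0.11, 0.67 above that of all genes. Rab27b, a small GTPase of granule docking, was above 0 in 8 of 11 mast-like cells at 490 CPM and in 2 of 52 basophil-like cells at 7.09 CPM. Rab44, a large Rab GTPase, was at 245 and 223 CPM. Of 13 tested S and G2/M phase genes none was higher and 8 were lower, with a median of -1.27, which is -0.71 from that of all genes. At least 4 of the 14 listed genes were above 0 in 6 of 84 members (7.14%, exact 95% interval 2.67 to 14.9), 5 of them basophil-like, against 20% (19.1 to 21) of other Ptprc-positive cells and 4.03% of neutrophil-like cells, which had a median of 1034 detected genes. Of 13 tested genes that dissociation can induce, Fosb, Jun, Jund and Hspa1b were higher and Fos and Atf3 lower. Jun was at 1320 CPM in mast-like and 234 CPM in basophil-like cells, and its part in other differences between them was not tested.

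Outside the lists, among genes at 100 CPM or more in the members or the others, the largest log2 ratio belonged to Grm6, a metabotropic glutamate receptor known from retinal bipolar cells. It was at 128 CPM in the members and 0.337 CPM in other Ptprc-positive cells (log2 ratio 6.60), above 0 in 24 basophil-like, 10 unsplit and no mast-like cells. Clec12b, a C-type lectin-like inhibitory receptor, followed with a log2 ratio of 6.20, and came from mast-like cells. It was above 0 in all 11, with values of 2 to 14 (median 4), and in 1 unsplit cell. In basophil-like cells it was above 0 in 0 cells, so the mast-like level stood 112-fold above the floor. Hs3st1, a heparan sulfate sulfotransferase, was at 622 CPM in mast-like, 502 CPM in ILC2-like and 191 CPM in basophil-like cells. Aqp9, a water and glycerol channel, and Klf5, a zinc finger factor, were at 131 and 244 CPM in basophil-like cells and 0 in mast-like cells. Ier3, an immediate early gene, was at 2704 CPM in basophil-like and 641 CPM in mast-like cells. Samd11 and Sytl3, a Rab27 effector, had log2 ratios of 3.76 and 3.85, and the unnamed genes Gm20186 and Gm26809 of 3.92 and 4.40. Among the same genes, the lowest ratios were those of Ighm (-5.29), the immunoglobulin μ chain, Fgr (-4.37), a myeloid Src kinase, Ccr7 (-4.31), Pmepa1 (-4.24) and H2-Ab1 (-4.13), an MHC class II chain.

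Between basophil-like and mast-like cells, 1662 genes reached 100 CPM in either group. Of these, 369 (22.2%) were higher in basophil-like cells by the same limit on the log2 ratio and 483 (29.1%) were lower, and the median ratio was -0.36. The 10 largest differences on the basophil side were in Ifitm1, Ccl4, Mcpt8, Ccl9, Ccl3, Nlrp3, Camp, Ngp, Il6 and Nabp1. Nlrp3, an inflammasome sensor, was above 0 in 51 of 52 basophil-like cells at 1747 CPM and in no mast-like cell, 30.9-fold above the floor. Neutrophil-like cells had 886 CPM. Camp and Ngp, both neutrophil granule genes, were above 0 in 8 and 9 basophil-like cells. Without the cells that carried markers of another class, Ngp was at 45.5 CPM. The 10 on the mast side were Cma1, Mcpt4, Tpsab1, Tpsb2, Clec12b, Kit, Mrgprb1, Tph1, Fam198b and Pmp22. Mcpt8 on one side and Cma1, Mcpt4, Tpsab1, Tpsb2 and Kit on the other made the split, so their place in this order follows from it. Fam198b was above 0 in 6 and Pmp22 in 3 of the 11 cells.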

How the data were processed

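The members and gene lists were chosen with earlier results of these data known. The tools named for the single-cell sample are Cell Ranger 5.0 and Seurat 3.2.2, and for the bulk sample HISAT2, featureCounts, Trim Galore and DESeq2 with the build mm10, per the submitters' processing notes. For single cells the build was not given in the sources used here.

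The deposited single-cell values are a score: whole-number UMI values that appear corrected for depth, inferred from the values. Cell totals span 1.79-fold while detected genes span 5.3-fold, and how they were made is unknown. No count model or Poisson interval was used for them. For bulk, the authors deposited expected counts per gene together with TPM and FPKM values. Expected counts were scaled to CPM over 171910584 reads with exact Poisson 95% intervals, and TPM and FPKM were not used.

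The table holds 17758 genes. Cells over 10% mitochondrial (646) were left out. No doublet caller was run. Members with at least 4 of 6 markers of another class were left out as an alternative. Other Ptprc-positive cells took the class with most of its 6 markers above 0, if at least 4 and no tie, and a class of under 50 cells was not used. Group levels are CPM, log2 ratios add 1 CPM, and genes tested are at 20 CPM or more in either group (100 between basophil-like and mast-like cells). A fold against a group at 0 uses a floor of 3 values over the group, which is a convention and not a statistical bound. Shares have Clopper-Pearson intervals. Steps were tested on simulated data. Python 3.11.15, numpy 2.4.6, pandas 2.3.3 and scipy 1.17.1 were used.

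Genes named are the rule and split genes, up to 4 per list with the largest absolute log2 ratio, the 10 highest and 5 lowest outside the lists at 100 CPM or more, and the 10 highest and lowest between basophil-like and mast-like cells. Other list genes were named after their values were seen, and some genes under the rule are not reported here. Shared 3′ ends were read from GENCODE M21 transcripts, over the last 500 bases of 20 genes.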

Additional observations from a re-analysis of the deposited data

Results flagged for a closer look

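The bulk library of PDGFRA+ cells was in no comparison above, and 10 of the 16 rule and split genes lay above the level of 3 reads (0.0175 CPM) in it. Among basophil genes, Mcpt8 was at 0.0291 CPM (5 reads, exact Poisson 95% interval 0.00944 to 0.0679) and Prss34 at 0.128 CPM. Among mast cell proteases, Tpsb2 was at 0.814, Cma1 at 0.553, Cpa3 at 0.506 and Mcpt4 at 0.46 CPM. Cyp11a1 was at 0.0989 CPM. Gata2 at 5.9, Kit at 2.16 and Itga2 at 1.94 CPM were higher, and these 3 genes are also expressed outside the lineage. Cd200r3 had 2 reads. Fcer1a, Ms4a2, Il4, Tpsab1 and Mrgprb2 were not listed. In a bulk sample, fewer cells of a type and less RNA per cell cannot be told apart, and how these reads came into the sorted cells was not tested.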

How the results depend on the processing

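The number of members was 84, and 163 without the absence conditions. The number of basophil-like cells was 25 when 3 genes of a side were required and 100 without the absence conditions. That of mast-like cells was 3 with at least 4 of the 6 rule genes, 7 with at most 5% mitochondrial and 18 without the absence conditions. Genes at a log2 ratio of 1 or more numbered 192 with a minimum of 100 CPM and 865 with none, and those at -1 or less 263 and 5840. The latter numbered 1255 without the absence conditions and 1066 against cells within the members' quartiles of detected genes. Of the 87 named genes, 85 kept the sign of their log2 ratio under each of those last 2 alternatives, and all 87 kept it with values averaged per cell without scaling. Sizes changed more. Against cells of like detected genes, 54 of 109 counts, list medians and ratios moved past a set limit. There, 15 of 18 list medians kept their sign. Without the absence conditions, 58 of 171 moved and 17 of 18 list medians kept their sign. With cells of at least 3 rule genes left out of the comparator, 19 of 109 moved and all 87 genes kept their sign. Among genes whose log2 ratio was past 1 or -1, signs turned for Fam198b (-0.85) and, between basophil-like and mast-like cells, Il3ra (0.71) with at least 4 rule genes, for Ccl5 (-0.41, between the same groups) without the 11 cells with markers of another class, for Igf1 (0.29) without the absence conditions, and for Tfec (0.43) against the cells of like detected genes; the cause was not tested. Among those inside these limits, for members over the comparator, Itga2 turned against the cells of like detected genes (-0.34) and against all other kept cells (-0.07), and Pmp22 without the absence conditions (0.27) and against Ptprc-positive cells also without stromal classes (0.62), and between the split groups Fcer1a, Rab44, Sytl3, Fosb and Cd200r3 turned under at least 1 alternative. The settings for the split and ratios without absence conditions, for Ptprc-positive members, and for changed comparators were chosen after seeing the data. With 1 library, no replicate could be left out. No paired analysis was possible because each group is 1 sample. With 11 mast-like cells at a median of 1051 detected genes, a gene at 0 may have been missed at this depth.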

Other observations

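Cma1 was not confined to the mast-like cells. It was above 0 in 36.1% of NK cell-like cells at 173 CPM, against 25982 CPM in mast-like cells, while Mcpt4 and Tpsb2 were at 2.67 and 1.34 CPM in the NK cell-like cells. B cell-like cells held 173 CPM of Cma1, 210 CPM of Mcpt4, 155 CPM of Tpsb2 and 72.7 CPM of Cpa3, with Cma1 above 0 in 0.763% of them. Gm20186 was at 826 CPM in basophil-like and 810 CPM in ILC2-like cells, and Samd11 at 163 and 157 CPM. Adgre1, which encodes the macrophage marker F4/80, was above 0 in 25 of the 84 members, 15 basophil-like and 10 unsplit, while C1qa was above 0 in 4.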
